A study of Bos taurus with 15 samples.

Results

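The genes of 7 proteins of the apical microvillus were followed in bovine (Bos taurus) blastocysts: the actin bundlers PLS1 and PLS3, the severing and capping proteins SCIN and VIL1, and the membrane linkers EZR, RDX and MSN. They were taken by symbol from the deposited table of estimated counts, in which all 7 stood among 17259 genes, and 6 passed the filter on low counts; VIL1 did not. The set was selected on measured values: it was proposed with the differences of PLS1 and SCIN between the groups in view, so the values of these genes and all differences from in vivo are given as a description. The label of the set names apical microvilli, and no value here measures microvilli or protein.

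Microvilli are finger-like membrane protrusions held up by a bundle of parallel actin filaments. Bundling proteins such as plastins, villin and espin cross-link the filaments, and proteins of the gelsolin family cut and cap them in response to calcium. Ezrin, radixin and moesin (the ERM proteins) tie the filaments to the membrane and to scaffold proteins below it. In the blastocyst, the outer epithelium (the trophectoderm) is polarised and carries microvilli on its outward face.

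The material was poly(A) RNA from blastocysts at day 7, in 3 groups of 5 libraries. One group was collected in vivo and was not cultured. The other 2 groups were cultured in SOF medium after the cumulus cells, which surround the oocyte, had been removed from the zygotes either by hand (manual) or by an automated procedure (automatic). All groups are whole blastocysts of unstated sex and parentage, described in the labels by the word blastomera, and both cultured groups share in vitro culture as well as denudation. The labels count 5 blastocysts to a group and do not say outright whether a library is 1 blastocyst or a pool, nor whether libraries came from separate cultures. The tests therefore set a difference against a library-to-library spread that may be technical.

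The libraries held between 17.96 and 41.97 M counts (M stands for 1000000). A gene was taken as detected at 10 or more counts. By that measure manual 2, automatic 2 and 4, and in vivo 2 and 4 detected 6977 to 8547 genes, while the remaining 10 libraries detected 9900 to 12611. The share of mitochondrially encoded transcripts was 8.18% to 14.4% in the former and 3.26% to 9.99% in the latter. The former are called low-detection libraries, and results are given with and without them. Trophectoderm markers were present, with 11 of 11 at 10 or more counts in some library. Their summed level was 4978 to 14975 CPM (counts per 1000000 counts, scaled by TMM) in the automatic, 8613 to 35490 in the manual and 13919 to 32054 in the in vivo libraries.

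PLS1, the plastin of intestinal and inner ear microvilli, was lower after automatic than after manual denudation. The automatic libraries 1 to 5 held 186, 220, 262, 142 and 292 CPM, and the manual libraries 476, 766, 605, 642 and 787 CPM. The highest automatic library lay below the lowest manual one, an arrangement that 0.527% of the genes tested showed in this direction. The in vivo libraries held 413, 259, 189, 749 and 605 CPM and overlapped both cultured groups. In order of their means the groups stood at 655 ± 127 CPM (manual), 443 ± 234 CPM (in vivo) and 220 ± 59.7 CPM (automatic; SD, n = 5 each).

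The fitted PLS1 difference between automatic and manual was -1.57 ± 0.37 (log2 fold change ± SE), a 2.97-fold lower level. Without the low-detection libraries it was -1.33 ± 0.37, and with each library left out in turn it lay between -1.67 and -1.44. Against in vivo, PLS1 was -1.01 ± 0.37 in automatic and 0.56 ± 0.36 in manual libraries, and -0.70 ± 0.39 and 0.63 ± 0.37 without the low-detection libraries. The mean of both cultured groups differed from in vivo by -0.22 ± 0.31, and this turned to 0.086 with limma voom and quality weights and to 0.079 without in vivo 4. In whole blastocysts, fewer trophectoderm cells and less PLS1 RNA per cell cannot be told apart. KRT18, a keratin of the trophectoderm, stood at 2571 ± 804 CPM in automatic, 5769 ± 3601 CPM in manual and 7245 ± 2081 CPM in in vivo libraries (SD, n = 5). The trophectoderm factor GATA3 did not share that order: it stood at 73.8 ± 61.1 CPM in automatic, 97.3 ± 50.6 CPM in manual and 61.5 ± 51.5 CPM in in vivo libraries, and its automatic minus manual difference of -0.40 ± 0.77 (log2 ± SE) became 0.0019 ± 0.41 without the low-detection libraries. CDX2, another such factor, stood at 4.20 ± 3.44, 7.84 ± 4.92 and 9.78 ± 9.52 CPM in the same order of groups (SD, n = 5). The part of trophectoderm cells in the PLS1 result was not tested.

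**Figure D1:**
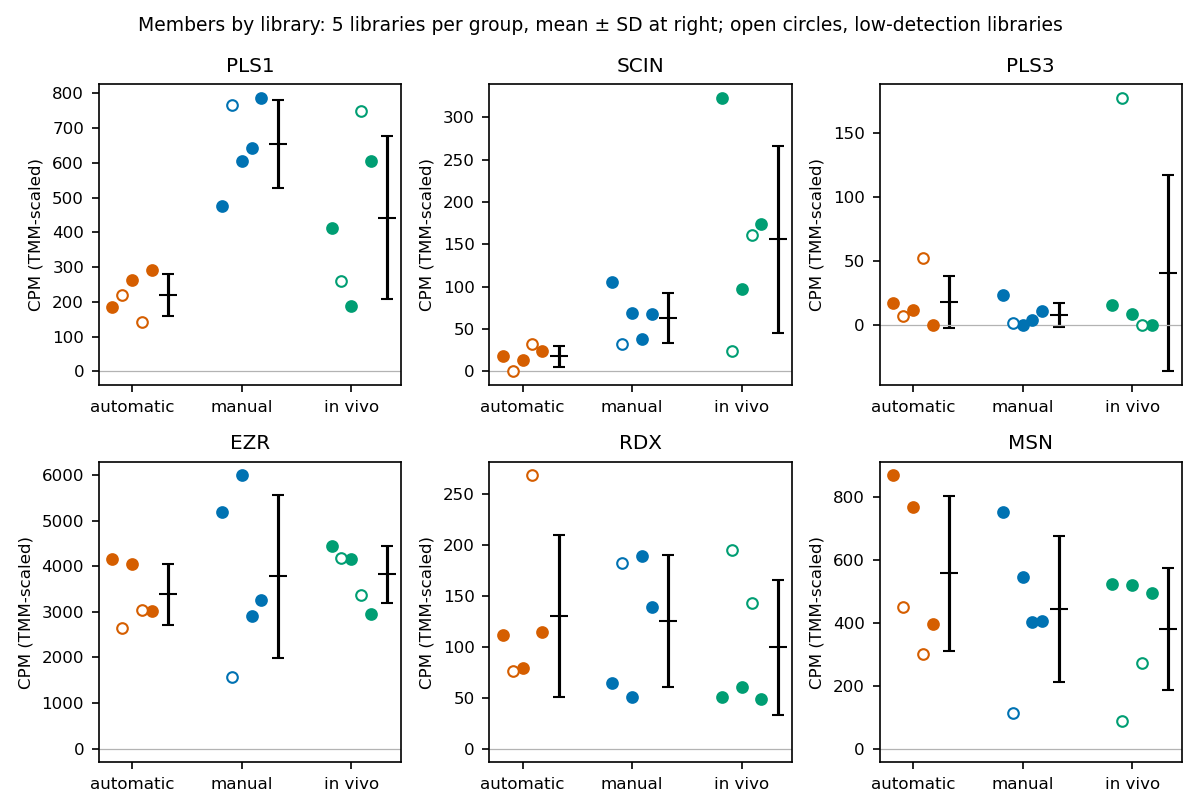
Level of the 6 members with counts in each library, in CPM scaled by TMM, with 1 panel per gene; points are libraries, open circles are the low-detection libraries, and the bar at the right of each group is the mean ± SD (n = 5). For PLS1 the automatic libraries (142 to 292 CPM) lie below all manual libraries (476 to 787 CPM), while for EZR the 3 groups overlap.

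PLS3, the plastin found in many solid tissues, was low and uneven in every group. The automatic libraries held 16.6, 6.70, 11.5, 52.2 and 0 CPM, and the manual libraries 23.2, 1.17, 0, 3.77 and 10.3 CPM. The in vivo libraries held 15.3, 177, 8.24, 0 and 0.0733 CPM, the last of these from 2 counts. One library in each group had 0 counts, and in vivo 2 alone stood above 100 CPM. The in vivo mean of 40.1 ± 76.8 CPM rests on that library, against 17.4 ± 20.4 CPM in automatic and 7.67 ± 9.53 CPM in manual libraries (SD, n = 5).

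The errors of the fitted PLS3 differences were close to or above the differences themselves. PLS3 was 1.18 ± 1.84 in automatic minus manual and -1.80 ± 1.52 in cultured minus in vivo (log2 ± SE). Without in vivo 2 the latter became 0.96, and automatic minus in vivo turned from -1.21 to 1.53 and manual minus in vivo from -2.39 to 0.40. No direction is therefore given for PLS3. LCP1, the plastin of leukocytes, was at 0 counts in 13 of 15 libraries, so PLS1 was the plastin with counts in every library. Plastins share sequence, and reads that fit more than one of them are divided by estimation, which makes low PLS3 values uncertain.

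SCIN, a calcium-dependent protein of the gelsolin family that cuts actin filaments and caps their ends, was highest in vivo and lowest after automatic denudation. The in vivo libraries held 323, 24.0, 97.8, 162 and 174 CPM, and the manual libraries 106, 32.5, 69.3, 38.4 and 68.0 CPM. The automatic libraries held 18.5, 0, 13.6, 32.7 and 24.3 CPM. The 3 groups overlapped: in vivo 2, at 24.0 CPM, lay below every manual library, and automatic 4, at 32.7 CPM, just above manual 2. The group means were 156 ± 111 CPM in vivo, 62.8 ± 29.3 CPM manual and 17.8 ± 12.2 CPM automatic (SD, n = 5), and the ranges of neighbouring groups in that order overlapped.

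Automatic 2 had 0 SCIN counts, while 3 counts would have been 0.117 CPM there, and the other 14 libraries had 314 to 14239 counts. The fitted SCIN difference was -1.82 ± 0.96 in automatic minus manual, -3.13 ± 1.01 in automatic minus in vivo and -1.31 ± 0.94 in manual minus in vivo (log2 ± SE). The mean of both cultured groups was -2.22 ± 0.77 against in vivo, a 4.66-fold lower level. All of these kept their direction with each of the 15 libraries left out in turn.

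Without the low-detection libraries the SCIN groups moved apart and the errors shrank. The 3 remaining automatic libraries (13.6 to 24.3 CPM) lay below all 4 manual libraries (38.4 to 106 CPM), as 2.82% of genes did. They also lay below all 3 in vivo libraries (97.8 to 323 CPM), as 8.97% of genes did, while manual and in vivo libraries still overlapped. The fitted differences were then -1.89 ± 0.47 for automatic minus manual, -3.40 ± 0.52 for automatic minus in vivo and -1.51 ± 0.44 for manual minus in vivo. In that fit SCIN was the 1 of 6 members called in cultured minus in vivo (-2.45 ± 0.38), where 0.0568% of genes were called. It was also the 1 called in automatic minus in vivo, where 0.073% were. The same fit called 0 of 6 members in automatic minus manual, beside 0.00811% of genes, and 0 of 6 in manual minus in vivo, beside 0.0243%. SCIN was selected on its differences between the groups, so its calls in this fit are a description and not a test.

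VIL1, villin, the bundling and severing protein of the intestinal brush border, had 0 counts in all 15 libraries. In a library, 3 counts would have been 0.0614 to 0.230 CPM, so a VIL1 level above that range was not seen, within counting error alone. Other gelsolin family genes were present. CAPG, which caps filaments without cutting them, held 577 ± 164 CPM in automatic, 685 ± 363 CPM in manual and 1167 ± 317 CPM in in vivo libraries (SD, n = 5). The highest automatic library (719 CPM) lay below the lowest in vivo library (816 CPM), as 1.16% of genes did, and CAPG was -0.89 ± 0.30 (log2 ± SE) in cultured minus in vivo, with an edgeR adjusted p of 0.553.

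GSN, gelsolin itself, stood in another order than SCIN and CAPG, at 84.1 ± 66.1 CPM in automatic, 120 ± 113 CPM in manual and 42.8 ± 37.4 CPM in in vivo libraries (SD, n = 5). Its fitted difference was 1.23 ± 0.83 in cultured minus in vivo (edgeR adjusted p = 0.990), which did not pass the test. VILL, the villin-like gene, was at 0 counts in 13 of 15 libraries.

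EZR, ezrin, the linker typical of epithelial microvilli, took 0.122% to 0.633% of all counts in a library. The automatic libraries held 4159, 2645, 4042, 3050 and 3020 CPM, the manual libraries 5183, 1565, 5989, 2913 and 3251 CPM, and the in vivo libraries 4432, 4186, 4166, 3378 and 2954 CPM. The groups overlapped throughout, and manual libraries spanned both the lowest and the highest value. The means were 3383 ± 675, 3780 ± 1788 and 3823 ± 627 CPM (SD, n = 5) in that order, and automatic minus manual was -0.16 ± 0.30 (log2 ± SE). Cultured minus in vivo was -0.10 ± 0.26 for EZR and turned to 0.09 when library size alone set the scale. That scaling shifted the median over all genes tested from -0.04 to 0.10. The EZR difference also turned to 0.068 without the low-detection libraries and to 0.0099 without manual 2, so no direction is given for it.

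MSN, moesin, a linker of many cell types, was lowest in libraries with few genes detected. The automatic libraries held 870, 453, 769, 302 and 398 CPM, the manual libraries 754, 115, 548, 403 and 407 CPM, and the in vivo libraries 526, 89.0, 522, 272 and 495 CPM. Of the 5 low-detection libraries, 4 lay below the lowest of the other 10 (398 CPM), and automatic 2 was the exception. Over all 15 libraries, log2 CPM of MSN and the number of genes detected gave Pearson r = 0.736 and Spearman rho = 0.750 (permutation p = 0.00111 and 0.00182, Benjamini-Hochberg adjusted over 21 relations 0.0233 and 0.0382). With the 2 libraries most distant from the median detection left out, r was 0.681. Within the 10 other libraries it was 0.571 and rho 0.491 (permutation p = 0.0870 and 0.153, adjusted 0.305 and 0.410), so the relation did not pass within them.

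Between groups, MSN means were 558 ± 247 CPM in automatic, 445 ± 233 CPM in manual and 381 ± 194 CPM in in vivo libraries (SD, n = 5). Automatic minus manual was 0.33 ± 0.49 and cultured minus in vivo 0.39 ± 0.43 (log2 ± SE), within the spread between libraries. Among the 3 in vivo libraries that were not low in detection, MSN was 514 ± 17.1 CPM (SD, n = 3), and the 2 left out held 89.0 and 272 CPM.

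RDX, radixin, was high in most libraries in which MSN was low. The automatic libraries held 112, 76.9, 79.2, 269 and 115 CPM, the manual libraries 64.4, 182, 50.5, 190 and 139 CPM, and the in vivo libraries 50.8, 195, 60.4, 143 and 48.7 CPM. In vivo 2 and in vivo 4, both low in detection, were the 2 highest of their group. RDX and MSN gave Pearson r = -0.634 and Spearman rho = -0.711 over 15 libraries (permutation p = 0.00809 and 0.00418, adjusted over 21 relations 0.0849 and 0.0439), and r = -0.680 without the 2 libraries farthest from the median of RDX. Within the 10 other libraries r was -0.309 (permutation p = 0.381, adjusted 0.690). The log2 ratio of RDX to MSN counts averaged -0.37 ± 1.45 in the low-detection libraries (SD, n = 5) and -2.75 ± 0.91 in the others (SD, n = 10). The part of detection in this relation was not tested beyond these values.

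The group means of RDX were 130 ± 79.4 CPM in automatic, 125 ± 65.0 CPM in manual and 99.7 ± 66.2 CPM in in vivo libraries (SD, n = 5). Automatic minus manual was 0.06 ± 0.54 (log2 ± SE) and became -0.11 ± 0.43 without the low-detection libraries. Cultured minus in vivo was 0.36 ± 0.47 and became 1.0 ± 0.41 without them, where the 3 in vivo libraries lay at 53.3 ± 6.25 CPM and the 3 automatic libraries at 102 ± 19.8 CPM (SD, n = 3 each). In that subset automatic lay above in vivo with no overlap, as 8.81% of genes did, and RDX was not called. The 3 ERM genes share sequence, and estimation divides reads that fit more than one of them.

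**Figure D2:**
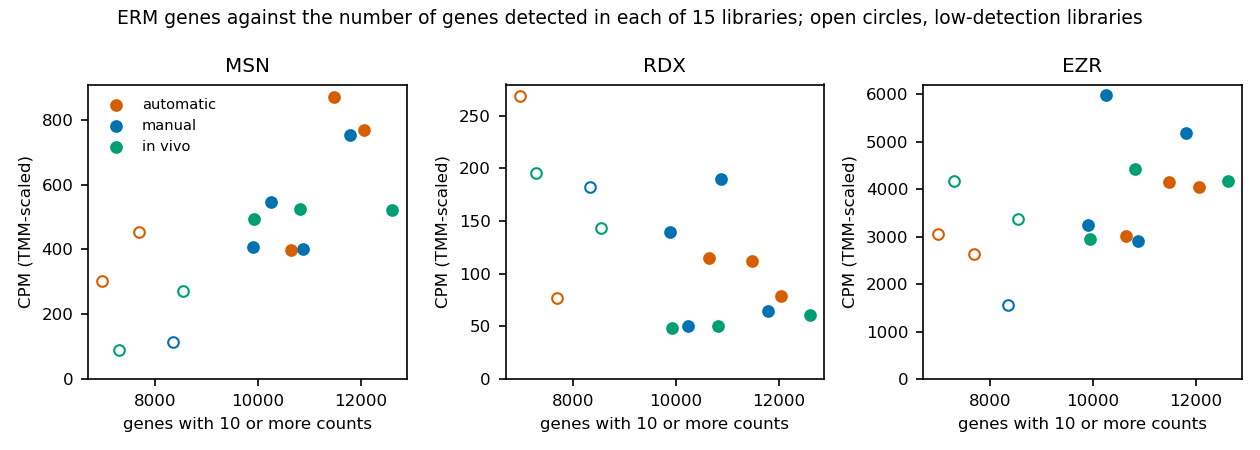
Level of MSN, RDX and EZR (CPM scaled by TMM) against the number of genes with 10 or more counts in each of 15 libraries; colours are groups and open circles are the low-detection libraries. MSN lies below 398 CPM in 4 of the 5 low-detection libraries, and RDX is at 143 CPM or more in 4 of the same 5.

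Between automatic and manual denudation, the question was whether the way of denudation left a difference in the transcriptome. With edgeR's quasi-likelihood test, 0 of 6 members were called, each with an adjusted p of 0.9999, and 0% of the 11578 genes tested were called. At an unadjusted p under 0.05 edgeR gave 1 member, PLS1, and 171 genes in all. DESeq2 also called 0 of 6 members, beside 0.0794% of genes, in this comparison. Since the set was selected on differences of PLS1 and SCIN between the groups, these counts are a description for both genes, and no p is read from them here or in the comparisons with in vivo. In both cultured minus in vivo and automatic minus in vivo, 0 of 6 members and 0.0173% of genes were called with edgeR. In manual minus in vivo the call was 0 of 6 members and 0% of genes. Unadjusted edgeR p was under 0.05 for SCIN in cultured minus in vivo, and for 710 of the 11578 genes. In automatic minus in vivo it was under 0.05 for PLS1 and SCIN, and for 621 genes in all. In manual minus in vivo it was under 0.05 for 0 members and 392 genes. As PLS1 and SCIN were selected on such differences, these counts do not test them. DESeq2 called 0 of 6 members in each of these comparisons, beside 0.759% of genes in cultured minus in vivo, 0.768% in automatic minus in vivo and 0.388% in manual minus in vivo.

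A fit with limma voom and quality weights called SCIN in cultured minus in vivo (-2.41 ± 0.49, log2 ± SE), beside 0.924% of genes. It also called SCIN in automatic minus in vivo (-3.45 ± 0.68), beside 0.821% of genes. It called 0 of 6 members in automatic minus manual (0.00864% of genes) and in manual minus in vivo (0.0173%). These comparisons share the in vivo libraries with each other. SCIN was selected on its differences between the groups, so its calls here describe it and do not test it.

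**Figure D3:**
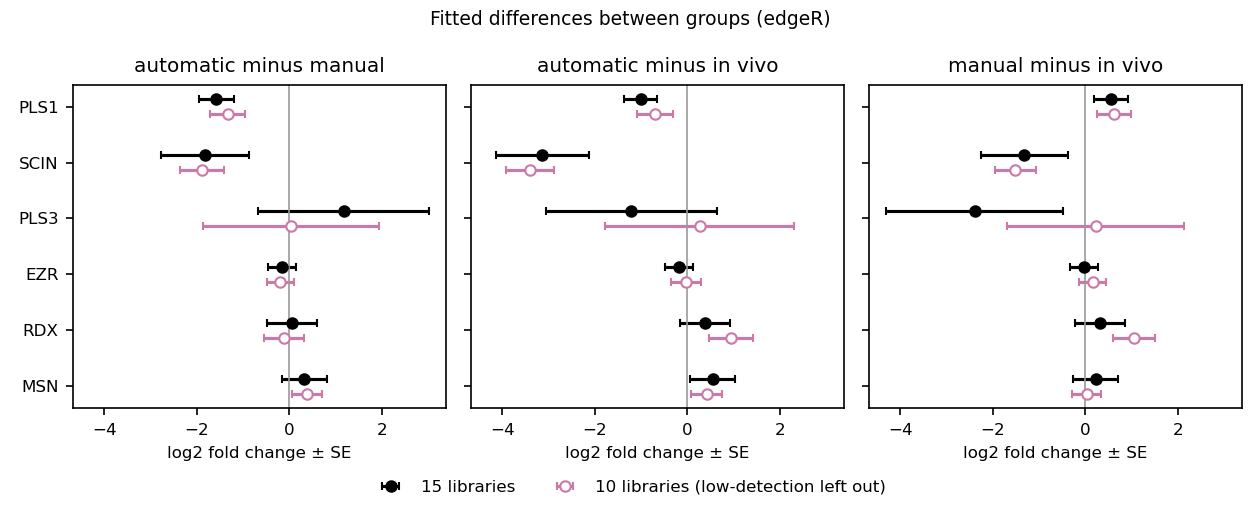
Fitted log2 fold change ± SE (edgeR) of the 6 members tested, for automatic minus manual, automatic minus in vivo and manual minus in vivo; filled points use 15 libraries and open points the 10 that are not low in detection. PLS1 and SCIN lie below 0 in the first 2 panels in both fits, PLS1 lies above 0 and SCIN below 0 in the last, and the PLS3 bars cross 0 in all panels but the last with 15 libraries.

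Joint variation of PLS1 and SCIN is given as a description, since both genes were selected on their differences between the groups. Their log2 CPM gave r = 0.421 and rho = 0.425 over 15 libraries, and no p is read from them. Without the 2 libraries farthest from the PLS1 median r was 0.474. After each group's mean was taken off r was 0.0748, and joint variation within groups was not tested. Within the 10 libraries that were not low in detection, r was 0.413. The log2 ratio of PLS1 to SCIN counts was 3.33 ± 0.90 in automatic (n = 4, without the library at 0) and 3.49 ± 0.92 in manual libraries (n = 5), against 1.75 ± 1.19 in vivo (SD, n = 5). The in vivo ratios, from 0.36 to 3.43, overlapped those of both cultured groups. Without the low-detection libraries they did not. The in vivo ratio was then 1.03 ± 0.73 (n = 3, 0.36 to 1.80). It was 3.73 ± 0.49 in automatic (n = 3, 3.33 to 4.27) and 3.22 ± 0.80 in manual libraries (SD, n = 4, 2.17 to 4.06). The share of gene pairs with such a separation was not computed. Among single genes in that subset, automatic lay below in vivo with no overlap for 8.97% and above it for 8.81%. Both genes were selected on their differences between the groups, so the separation is a description. These ratios compare library with library, and without gene lengths they are not a ratio of molecules.

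By likeness over the 15 libraries (Pearson r of log2 CPM, among 8616 genes with a mean of at least 5 CPM), the genes nearest to SCIN were ANXA8L1 (r = 0.959), PAG2 (0.946), CAST (0.943), B3GAT3 (0.931) and GALNT11 (0.923). Within the 10 libraries that were not low in detection their r lay between 0.716 and 0.863. ANXA8L1 belongs to the annexins, which bind membranes with calcium, CAST is the inhibitor of the calpain proteases, and PAG2 is a glycoprotein of the trophoblast. PAG2 stood at 56.2 ± 45.9 CPM in automatic, 221 ± 118 CPM in manual and 536 ± 214 CPM in in vivo libraries (SD, n = 5), the same order as SCIN. That gene was picked by its likeness to SCIN over these same libraries, so the shared order is no separate result. PAG2 belongs to a large gene family that shares reads. PLS1 stood 1985th in the likeness to SCIN.

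The genes nearest to PLS1 were FAM177A1 (r = 0.877), RCN2 (0.851), SDF2 (0.845), PRR5 (0.803) and ZNF451 (0.803), and within the 10 libraries their r lay between 0.723 and 0.891. RCN2 is a calcium-binding protein of the secretory pathway. RCN2 stood at 199 ± 57.9 CPM in automatic, 351 ± 97.0 CPM in manual and 306 ± 102 CPM in in vivo libraries (SD, n = 5). No gene was among the 5 nearest to both PLS1 and SCIN. KRT18 stood 74th in the likeness to PLS1 (r = 0.637) and 1515th in that to SCIN (r = 0.491). These r values are descriptions over the same 15 libraries, which also share their depth and detection.

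Among 4 lists of microvillus genes around the members, edgeR called no gene in any comparison, beside 0% to 0.0173% of all genes tested. With so few calls over all genes, this count does not set the lists apart. Of the gelsolin, plastin and ERM relatives, 6 of 8 were tested, and 5 of the 6 lay below 0 in automatic minus manual, with a median of -0.47 (log2) beside -0.05 for all genes. In cultured minus in vivo their median was -0.21 beside -0.04, and it turned to 0.92 without the low-detection libraries. NF2, merlin, the ERM relative that restrains growth, was -1.51 ± 1.18 (log2 ± SE) in automatic minus manual, within its spread.

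The actin core and its motors gave 28 tested of 33, with medians of -0.08 in automatic minus manual and -0.13 in cultured minus in vivo, near those of all genes. ACTB, the actin of the non-muscle cytoskeleton, held 11952 ± 3560 CPM in automatic, 11248 ± 5782 CPM in manual and 16030 ± 4041 CPM in in vivo libraries (SD, n = 5). The brush-border bundler ESPN was at 0 counts in 6 libraries and averaged 0.20, 0.79 and 3.97 CPM in the same order. EPS8, which caps filaments at the microvillus tip, averaged 2.17, 1.14 and 3.41 CPM. MYO1A, the brush-border myosin, was at 0 counts in 11 of 15 libraries and was not tested.

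The intermicrovillar adhesion complex, which joins neighbouring microvilli at their tips in the gut, had few counts. CDHR2, a cadherin of that complex, and CALML4 were the 2 of its 6 genes tested. CDHR2 was at 0 counts in 7 libraries and reached 13.7 CPM in a manual library, and CALML4 was at 0 counts in 8 and reached 4.95 CPM, also in a manual library. USH1C, the scaffold of that complex, was at 0 counts in 12 of 15 libraries, and ANKS4B in all 15.

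Partners, kinases and membrane proteins around the ERM genes gave 20 tested of 26. Their medians were -0.34 in automatic minus manual and 0.07 in cultured minus in vivo, beside -0.05 and -0.04 for all genes. In the former 9 lay above and 11 below 0, and in the latter 10 above and 10 below. Without the low-detection libraries the medians were -0.41 and 0.25, beside -0.03 and -0.01. NHERF1, the scaffold that binds ezrin under the apical membrane, held 367 ± 174 CPM in automatic, 624 ± 432 CPM in manual and 807 ± 264 CPM in in vivo libraries (SD, n = 5). It was -0.77 ± 0.42 in automatic minus manual and -1.14 ± 0.43 in automatic minus in vivo (log2 ± SE, edgeR adjusted p = 0.9999 and 0.760). Over the 22 alternative settings the latter p ran from 0.0364, with limma voom and quality weights, to 0.9999. Voom also called KRT18 in cultured minus in vivo (adjusted p = 0.0204, up to 0.9997 in the other settings), beside 0.924% of genes. In automatic minus in vivo it called KRT18 as well (0.00618, up to 0.982), beside 0.821% of genes. No other setting called NHERF1 or KRT18 in any comparison. Both genes come from lists chosen with earlier results of these data known, so these calls are a description. PDZK1, a scaffold that binds NHERF1, averaged 3.20, 12.4 and 17.3 CPM in automatic, manual and in vivo libraries. SLK, a kinase that activates ERM proteins, averaged 44.2 CPM in manual libraries and was -1.77 ± 1.13 in automatic minus manual.

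**Figure D4:**
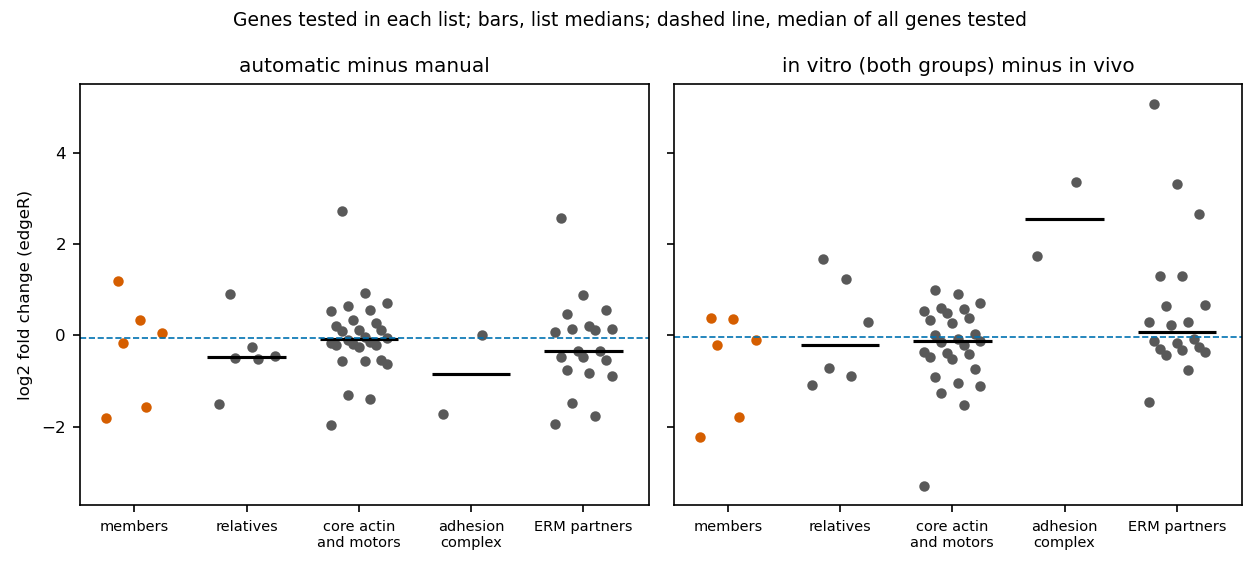
Fitted log2 fold change (edgeR) of each gene tested, for the 6 members and the 4 lists of related genes, in automatic minus manual and in the mean of both cultured groups minus in vivo; bars are list medians and the dashed line is the median of all 11578 genes. The actin core and its motors centre near the dashed line in both panels (medians -0.08 and -0.13), and SCIN is the lowest member in both.

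Markers of other cell types were also summed. Stroma markers summed to 37.6 to 234 CPM in automatic, 26.4 to 511 CPM in manual and 0.0457 to 35.2 CPM in in vivo libraries, and all 6 of 6 had 10 or more counts in some library; POSTN and COL3A1 were at 0 in every in vivo library. Leukocyte markers, of which 9 of 10 reached 10 counts in some library and PTPRC alone was at 0 in all 15, summed to at most 20.5 CPM. Cumulus and granulosa markers, of which 9 of 13 reached 10 counts and FOXL2 alone was at 0 in all 15, summed to at most 223 CPM, and markers of oviduct and endometrial epithelium (7 of 7) to at most 47.3 CPM. Red cell markers (2 of 3) summed to at most 259 CPM. Epiblast markers (7 of 7) summed to 1422 to 3913 CPM in the low-detection libraries and 582 to 1457 CPM in the others. Of these, DPPA3 alone ranged from 183 to 3135 CPM over all libraries, and POU5F1, the next highest, reached 539 CPM. Hypoblast markers (9 of 9) summed to 1547 to 2706 CPM in the low-detection libraries and 1492 to 5397 CPM in the others. Of these, FN1 alone ranged from 1171 to 4871 CPM over all libraries, and GATA6, the next highest, reached 634 CPM. SOX17 was at 0 counts in 11 of 15 libraries and reached 0.655 CPM, and GATA4 was at 0 in 4 and reached 1.57 CPM. The part of these cell types in the results of the members was not tested.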

How the data were processed

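The authors deposited their estimated counts in 1 table, as whole numbers and not scaled. The tools FastQC, fastp and kallisto are listed by name alone, per the submitters' processing notes. The transcript set, the build and the use of molecular identifiers were not given in the sources used here. No coordinates or lengths were used. Columns were matched to samples by library name. Of 17259 genes, 11578 were kept by filterByExpr; 1 line without a gene name was left out. Counts were tested in R 4.3.3 with edgeR 4.0.16 (TMM, robust quasi-likelihood F test, all 15 libraries in 1 fit with a mean per group), after rounding, which changed no value. Calls were made below an adjusted p (Benjamini-Hochberg) of 0.05. "Cultured" is the mean of automatic and manual. Alternatives were RLE or library-size scaling, no filter, DESeq2 1.42.0, voom with quality weights in limma 3.58.1, the replicate number as a block, the low-detection libraries (under 9000 genes with 10 or more counts) left out, and each library left out. Correlations used log2 CPM (prior count 2) and 100000 two-sided permutations. Within a group, no 2 libraries agreed within sampling noise (chi-square per degree of freedom at least 184). The edgeR test was tried on counts simulated with less spread between libraries than any tested member had. Its power at the real spread was therefore not assessed. Named genes were the members, a set list of relatives, partners and trophectoderm genes, and the 5 genes most like SCIN and PLS1; the members and lists were chosen with earlier results of these data known. A search of promoter motifs was not run.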

Additional observations from a re-analysis of the deposited data

Results flagged for a closer look

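Among 18 groups of 5 libraries (6 members in 3 groups), 2 had an end library far from the rest by Dixon's test, and chance gives about 1 in 20 groups. PLS3 in in vivo 2 was 177 CPM, and the next library of its group held 15.3 CPM. RDX in automatic 4 was 269 CPM, and the next of its group held 115 CPM. Both libraries are low in detection.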

How the results depend on the processing

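Between automatic and manual, edgeR called 0 genes, DESeq2 9, voom with quality weights 1, and edgeR without the low-detection libraries 1; every fit without 1 library called 0. In cultured minus in vivo 2 genes were called, against 0 with library size alone, 86 with DESeq2, 107 with voom, 8 with the replicate block, 7 without the low-detection libraries, and 0 to 7 with 1 library left out (7 without manual 3). In automatic minus in vivo 2 were called, against 0 with library size alone, 1 without a filter, 87 with DESeq2, 95 with voom, 7 with the replicate block, 9 without the low-detection libraries, and 0 to 4 with 1 left out (4 without manual 3). In manual minus in vivo 0 were called, against 44 with DESeq2, 2 with voom, 1 with the replicate block, 3 without the low-detection libraries, and 0 with 1 left out. The causes were not tested. The labels do not tie same-numbered libraries together. Their deviations correlated at 0.00137 to 0.380, all above 0 but not above 0.1 in every pair. With their own number 8 of 15 libraries correlated best, more than unrelated numbers would give on average. The 5 low-detection libraries carry number 2 (all 3 groups) or 4 (2 groups). As the labels give no pairing, the numbers were not used as pairs in the main fit, and the block was run as an alternative. Whether same-numbered libraries share an origin was not tested. With the block, PLS1 was -1.55 and SCIN -2.46 in automatic minus manual. There RDX (0.06) turned to -0.020 with voom and -0.11 without the low-detection libraries, and ran from -0.38 (without automatic 4) to 0.27 with 1 left out. EZR (-0.16) ran from -0.37 to 0.082 (without manual 3). Some genes of the lists also changed sign: of 14 named and tested, 6 did in some setting of automatic minus manual.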
